A study of Mus musculus with 2 samples.

Results

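The miR-143 and miR-145 cluster consists of a pair of miRNA hairpins that are cut from one shared transcript, and each hairpin can give a mature miRNA from its 5′ arm (5p) and its 3′ arm (3p). All 4 arms, mmu-miR-143-3p, mmu-miR-143-5p, mmu-miR-145-5p and mmu-miR-145-3p, were chosen by their names on the array, and they are 4 of the 1141 mature mouse miRNAs it carries. Each had 3 repeat spots, so 12 of the 3423 miRNA spots of an array belonged to them.

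A miRNA guides an Argonaute protein to messenger RNAs that pair with it and lowers their output, and usually 1 arm of a hairpin is the main guide while the other arm is mostly degraded. The shared transcript is made above all in smooth muscle cells, where serum response factor and its partner myocardin switch it on. miR-143-3p and miR-145-5p, the main guides, favour the contractile state of smooth muscle, in part by repressing Klf4, Klf5 and Elk1, transcription regulators of the growing state. In the lung, smooth muscle surrounds the airways and the arteries, and in pulmonary arterial hypertension the muscle layer of small arteries thickens. Both main guides have been studied in that disease.

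The series compares lungs of wild-type (WT) mice treated with monocrotaline (MCT), a toxin of Crotalaria plants that damages the lung vessels of rodents, with lungs of untreated WT mice. MCT treatment lasted 30 days in mice described as 14 weeks old, and neither the dose nor the age of the untreated mice is given in the sources used here. Each group was 1 sample of lung RNA on 1 single-colour array, and the labels do not say whether a sample was 1 mouse or a pool. There was therefore no replicate check and no test between the groups, and the standard deviations (SD) given here are over the 3 repeat spots of an array and measure the spread within it. In whole lung, fewer cells of a type and less RNA per cell cannot be told apart.

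The array backgrounds differed. Empty spots, which carry no probe, had a median intensity of 253 on the MCT array and 101 on the untreated array. A miRNA was called detected on an array when at least 2 of its 3 spots were brighter than 95% of the empty spots there, a limit of 284 on the MCT array and 116 on the untreated array. By this rule 316 miRNAs were detected in MCT lung and 403 in untreated lung, with 310 in both and 409 in either. The median miRNA spot read 226 on the MCT array, below the median empty spot, and 105 on the untreated array, above it. The rule was therefore stricter for miRNA spots on the MCT array, and the counts of the arrays cannot be compared directly. Of the 4 arms, miR-143-3p, miR-145-5p and miR-145-3p were detected on both arrays, and miR-143-5p on neither.

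miR-145-5p, the main guide of its hairpin, was far above background in both lungs. Its spots read 33313, 35007 and 34698 on the MCT array, against 24642, 26138 and 25603 on the untreated array. The spots lay close together within each array and the arrays did not overlap. All were below the brightest spot of their array, 53544 in MCT lung and 47014 in untreated lung.

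miR-143-3p, the main guide of the other hairpin, was also far above background. Its spots read 17489, 19163 and 19445 on the MCT array, against 11994, 12747 and 6717 on the untreated array. The arrays did not overlap in these raw intensities, but spot 3 of the untreated array was well below the other 2 spots there.

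miR-145-3p, the minor arm of the miR-145 hairpin, was dim but above the limit of each array at every spot. It read 593, 650 and 595 on the MCT array, against 168, 167 and 167 on the untreated array. After the median of the empty spots was subtracted, 341 to 397 remained in MCT lung and 65.8 to 67.0 in untreated lung, so a large part of the untreated reading was background.

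miR-143-5p, the minor arm of the miR-143 hairpin, could not be told from empty spots. It read 210, 231 and 213 on the MCT array, where all 3 spots were below the limit of 284. They were also below the median empty spot, as was the median miRNA spot of that array at 226. On the untreated array miR-143-5p read 110, 111 and 117, and 1 of the 3 spots passed the limit of 116. No fold is given for it, since neither array measured it well above background.

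**Figure D1:**
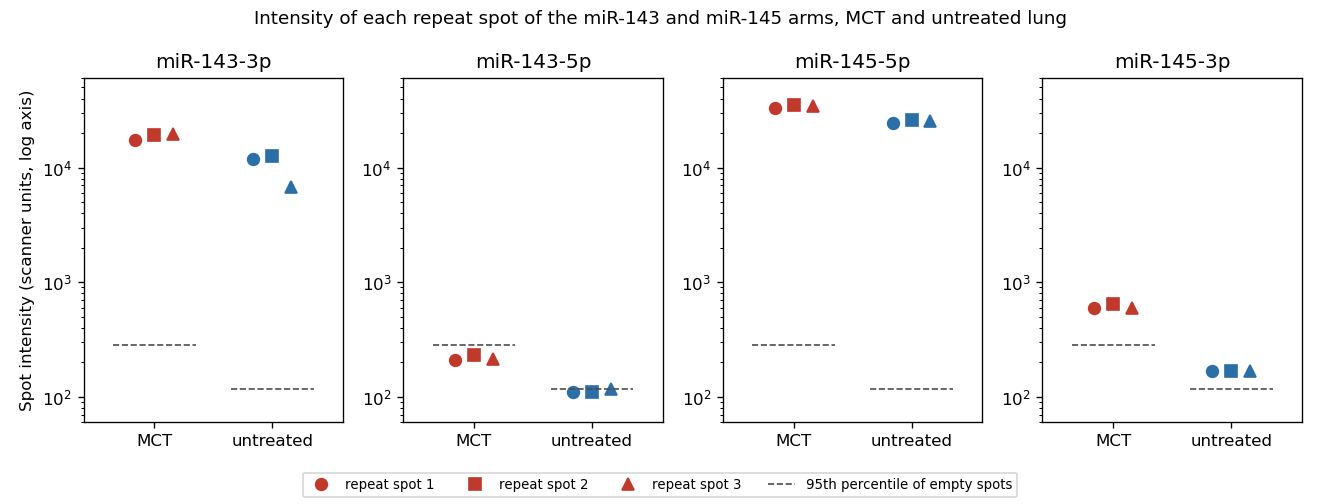
Scanner intensity (log axis) of the 3 repeat spots of each arm on the MCT and the untreated array, with the 95th percentile of the empty spots of each array as a dashed line. miR-145-5p and miR-143-3p lie far above the line, miR-145-3p lies above it by less, and miR-143-5p lies at or below it; spot 3 of miR-143-3p is low on the untreated array.

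The comparison asks whether the arms differ between 1 MCT lung sample and 1 untreated lung sample. Since the arrays differ in background and brightness, intensities were corrected for background, put on the log2 scale and quantile normalized, so that a ratio shows how a miRNA differed in comparison with the rest of the array. A call needed detection on either array, a difference of at least 2-fold (a log2 ratio of 1 in size) and spots that did not overlap between the arrays. None of the 4 arms was called higher and none lower by this rule, which found 17 of the 409 miRNAs detected in either lung higher (4.16%) and 9 lower (2.2%). The log2 ratios of MCT over untreated lung were above 0 for all 3 detected arms, and so were those of 52.3% of the 310 miRNAs detected in both lungs. Their median was 0.33, against 0.023 over those 310.

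miR-145-3p had the largest ratio of the 3. Its normalized log2 level was 8.32 ± 0.087 in MCT lung and 7.62 ± 0.015 in untreated lung (SD, 3 spots each). The log2 ratio was 0.70 ± 0.089, a 1.63-fold difference, and 29 of the 310 miRNAs detected in both lungs had a larger one. At a threshold of 1.5-fold it was the 1 arm called higher, beside 11.2% of the miRNAs detected in either lung. The spot-by-spot ratios of 0.63, 0.81 and 0.66 all lay on the same side. The log2 ratio passed 1 in 5 of 17 alternative processings, among them 1.72 without normalization, 1.13 with centring on the 75th percentile and 1.27 with a local background. Those named called 142, 49 and 35 of the 409 miRNAs detected in either lung at least 2-fold higher, against 17 as reported. Apart from the local background, the 5 differ only by a constant shift of an array's log2 values. They are therefore not separate checks. In the authors' deposited series table the probe stood at 242 in MCT lung and 116 in untreated lung, a fold of 2.09.

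miR-145-5p had a small ratio with little spread between spots. Its normalized log2 level was 14.97 ± 0.024 in MCT lung and 14.69 ± 0.047 in untreated lung (SD, 3 spots each), and the log2 ratio was 0.28 ± 0.053. The spots of the arrays did not overlap, MCT being higher, as in 41% of the miRNAs detected in both lungs. The difference is thus larger than the spread between spots and of a size that many miRNAs showed, since 88 of the 310 had a larger ratio. Its direction also depended on how the arrays were scaled. The log2 ratio was -0.025 with cyclic loess and -0.17 with centring on the 75th percentile. In the authors' deposited series table the probe was slightly lower in MCT lung, at 28197 against 30231 in untreated lung.

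miR-143-3p had a log2 ratio of 0.33 ± 0.41, smaller than its own spread between spots. Its normalized log2 level was 13.94 ± 0.11 in MCT lung and 13.61 ± 0.40 in untreated lung (SD, 3 spots each). After normalization the log2 ratio by spot was 0, 0.13 and 0.87, so on this scale it came mostly from spot 3. In raw intensities spots 1 and 2 were also brighter on the MCT array, with folds of 1.458 and 1.503 beside 2.895 for spot 3. The raw folds of miR-145-5p were 1.35, 1.34 and 1.36 by spot. Raw folds carry the general brightness of the MCT array. Without normalization the median log2 ratio over all detected miRNAs was 0.70. The raw folds thus do not show that these arms rose in comparison with the rest of the array. The normalized spots of the arrays overlapped, and 74 of the 310 miRNAs had a larger ratio.

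The scanner tables also give the SD of the pixels within each spot, which showed that this spot was uneven. Its pixel SD was 34.2% of its intensity, against 1.93% and 1.10% for the other 2 untreated spots of miR-143-3p and 0.474% to 0.766% for the 3 MCT spots. Of the 457 untreated spots brighter than 1000 units it was the only one over 20%, and their median was 2.14%. Over 10% there were 5, and 3 of these lay within 2 rows and 2 columns of each other. They were this spot, a spike control spot beside it at 12.4% and a spot of miR-99b-5p at 15.9%.

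Leaving out the uneven spot brought the log2 ratio of miR-143-3p to 0.066 ± 0.13. The median of the spots gave 0.18. With the uneven spot left out, the ratio of miR-143-3p was below that of miR-145-5p by 0.22 on the log2 scale, whereas with it the ratio was above by 0.049 ± 0.42. The order of the main guides was not settled. The ratio of miR-143-3p was above that of miR-145-5p in 13 of the 17 alternative processings and below it in 4, which were both omissions of spot 3, the median of the spots and removal of the GC trend. The 13 were not all separate checks. Processings that only shift an array's log2 values by a constant give the same difference, here 0.45.

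**Figure D2:**
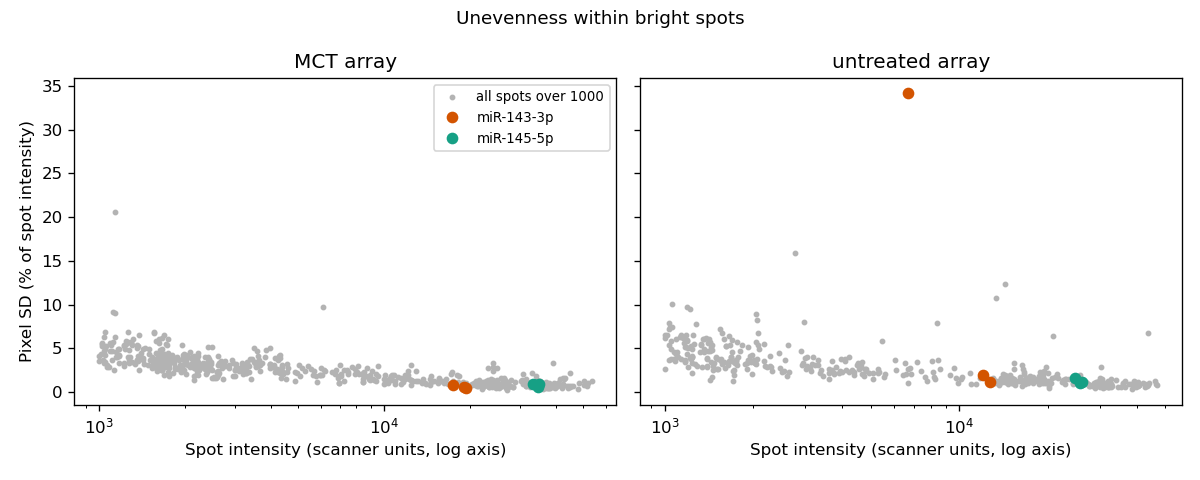
SD of the pixels within a spot, as a percentage of the spot's intensity, against intensity (log axis) for all spots over 1000 units on the MCT (left) and the untreated array (right). The low untreated spot of miR-143-3p stands alone at 34.2%, while its other spots and all spots of miR-145-5p lie under 2%.

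The authors' deposited value of miR-143-3p was set against these spots. In the authors' deposited series table it was 15276 in MCT lung and 12788 in untreated lung, a fold of 1.19. The untreated value was 1.22 times the mean of the 3 scanner spots and 1.03 times the mean of the 2 even ones. For 11 probes of like brightness, 0.7 to 1.4 times that of miR-143-3p, the deposited untreated value was 1.20 to 1.24 times the mean of the 3 spots. The factor over 3 spots thus fell in the range of the other probes and the factor over 2 spots did not.

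**Figure D3:**
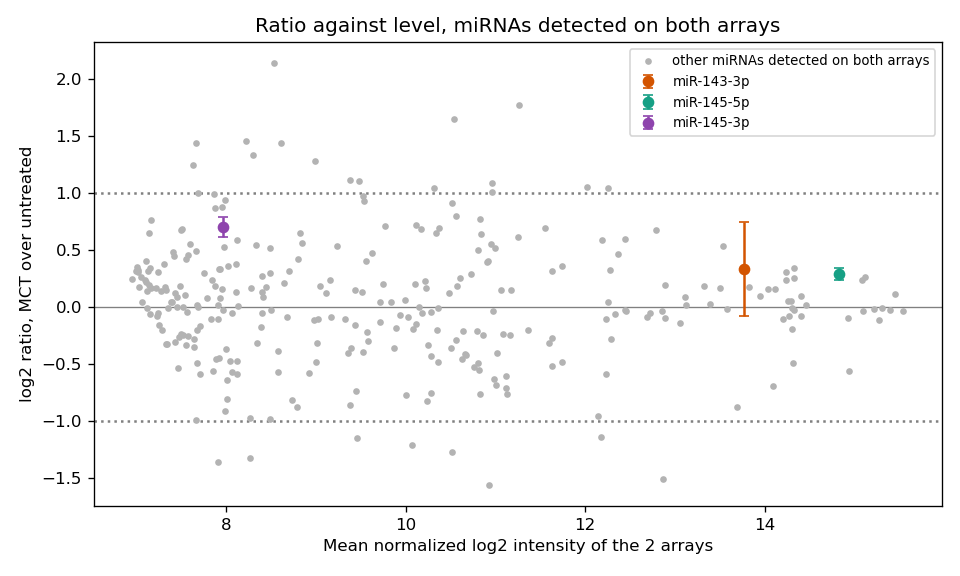
Log2 ratio, MCT over untreated, against the mean normalized log2 intensity of the 2 arrays, for the 310 miRNAs detected on both (grey) and the 3 detected arms (coloured, with the SD from repeat spots). The 3 arms lie above 0 and inside the dotted 2-fold lines, and the bar of miR-143-3p reaches below 0.

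The arms of the miR-145 hairpin differed from each other in their ratios. That of miR-145-3p was above that of miR-145-5p by 0.42 ± 0.10 on the log2 scale. A difference of ratios does not change when all log2 values of an array shift by a constant. The processings without normalization, with either centring and with the 5S probes differ only by such shifts. They gave the same value by construction and are not separate checks. The difference between these arms had the same sign in all 17 alternative processings. It ran from 0.27 with the GC trend removed to 1.53 with the raw intensities scaled first. Its size also moved with the background handling, as miR-145-3p was dim in untreated lung. The ratio of miR-145-3p was 0.56 without background correction, 0.81 with an offset of 16 and 1.27 with a local background. That of miR-145-5p was 0.28 in each of these. Unequal ratios of arms were common on these arrays. Of 42 hairpins with both arms detected in both lungs, the median difference was 0.37 in size, 17 exceeded that of miR-145, and 20 had arms of opposite sign. For the miR-143 hairpin the arms could not be compared, since miR-143-5p was not above background.

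The arms differ in base composition. GC content was 36.4% for miR-145-3p, 47.6% for miR-143-3p, 52.2% for miR-145-5p and 61.9% for miR-143-5p. Among the 3 detected arms the ratio was lower where the GC content was higher, an order that miR-143-3p left when its uneven spot was left out. After a lowess fit of the ratio on GC content over the 310 miRNAs was subtracted, the log2 ratio was 0.51 for miR-145-3p, 0.20 for miR-143-3p and 0.24 for miR-145-5p.

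**Figure D4:**
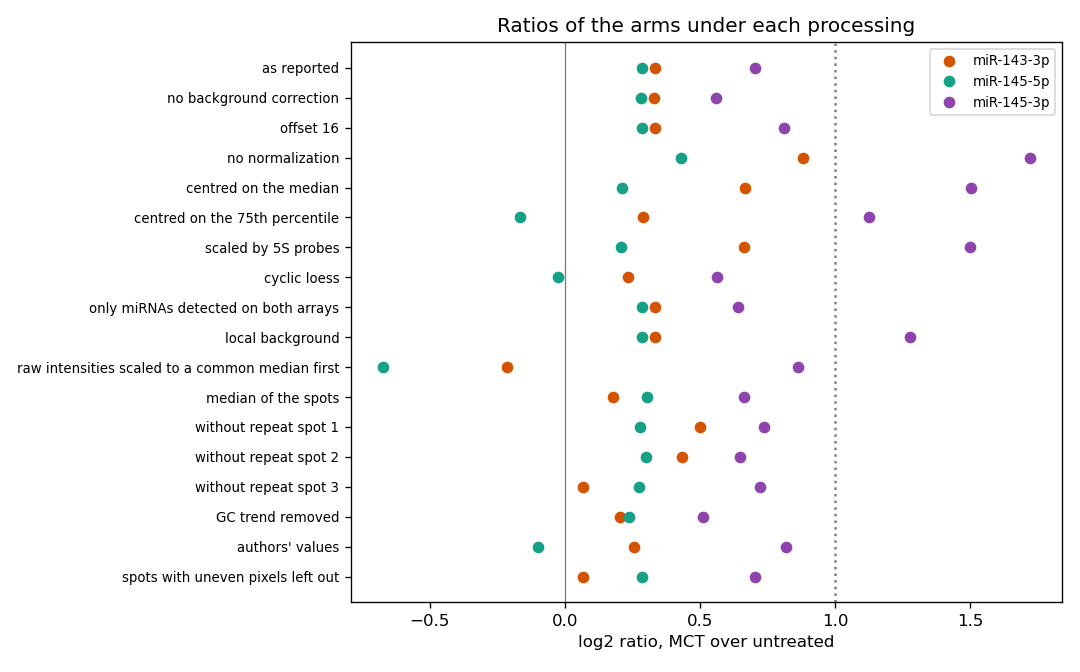
Log2 ratio, MCT over untreated, of the 3 detected arms (coloured points) as reported (top) and under each alternative processing, with 0 as a solid and 2-fold as a dotted line. miR-145-3p lies right of the other 2 in every line and passes 2-fold in 5, miR-145-5p crosses 0 in 4, and miR-143-3p is near 0 where the uneven spot was left out.

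The miRNAs closest to each arm in their pair of levels, MCT and untreated, were found over the 2 arrays. Intensities of different probes do not rank abundances, so this likeness says only that the readings were close. For miR-145-3p they were miR-568, miR-128-3p and miR-218-5p, at distances of 0.13, 0.13 and 0.17 log2 units, with log2 ratios of 0.88 ± 0.34, 0.52 ± 0.17 and 0.94 ± 0.22. For miR-145-5p they were let-7b-5p, miR-23a-3p and miR-23b-3p, at 0.31, 0.36 and 0.41 units, with log2 ratios of -0.10 ± 0.11, 0.24 ± 0.14 and 0.26 ± 0.0997. For miR-143-3p the nearest was miR-181a-5p at 0.14 units, followed by miR-690 at 0.30 and miR-125a-5p at 0.36. Since these miRNAs were picked for close levels on both arrays, close ratios follow from the choice.

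Other miRNAs with a reported part in smooth muscle were taken from a pair of lists. The first held 8 miRNAs reported to favour the contractile state or restrain growth, of which 6 were detected in both lungs. Their median log2 ratio was 0.34, against 0.023 over the 310 miRNAs detected in both lungs. Of them 1 was called higher and 0 lower, beside 4.16% higher and 2.2% lower of the 409 miRNAs detected in either lung. The called one was miR-100-5p, a miRNA known to target Mtor, at 1.77 ± 0.094. miR-322-5p, which targets cell cycle genes, had 0.65 ± 0.067, and miR-133a-3p, a miRNA of muscle, had 0.64 ± 0.080. The remaining ratios were 0.038 ± 0.051 for miR-10a-5p, -0.020 ± 0.080 for miR-195-5p and -0.086 ± 0.076 for miR-1a-3p. Of the 6 ratios 4 were above 0 and 2 below, beside 52.3% above 0 of the 310 miRNAs detected in both lungs. miR-204-5p and miR-18a-5p were not detected on either array.

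The second list held 9 miRNAs reported to favour growth of smooth muscle, all detected in both lungs, with a median log2 ratio of 0.028. Of the 9 ratios 5 were above 0, as were 52.3% of the 310 miRNAs detected in both lungs. By the rule 1 was higher and 0 lower, beside 4.16% and 2.2% of the 409 miRNAs detected in either lung. The higher one was miR-221-3p, a repressor of the cell cycle inhibitor p27, at 1.04 ± 1.54, a value that became 0.20 with the median of its spots, 0.14 without spot 3, 0.91 with the GC trend removed and 0.57 in the authors' deposited series table. Its relative miR-222-3p had -0.067 ± 0.057. miR-31-5p had 0.39 ± 0.040, miR-21-5p 0.23 ± 0.093, and miR-26a-5p 0.11 ± 0.086. miR-146a-5p had 0.028 ± 0.062, miR-24-3p -0.0075 ± 0.038, miR-130a-3p -0.040 ± 0.070 and miR-130b-3p -0.17 ± 0.17. The lists were not tested against each other.

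Markers of other cells in the lung were measured beside the arms, and their part in the ratios was not tested. Of 5 heart muscle miRNAs, the cardiac myosin miRNAs miR-208a-3p and miR-208b-3p and miR-499-5p were not detected on either array, while miR-1a-3p and miR-133a-3p, also made in skeletal muscle, were. The summed normalized intensity of those 2 was 8712 in MCT lung and 8294 in untreated lung. The other arm of the miR-208a hairpin, miR-208a-5p, was not on the list but was detected on both arrays. Its log2 ratio was 2.14 ± 0.11, and the cause was not tested. miR-208b-5p was not detected on either array. The endothelial miR-126-3p had a log2 ratio of -0.12 ± 0.12, and miR-126-5p was detected in untreated lung alone. The summed intensity of both was 38338 in MCT lung and 41576 in untreated lung.

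Of 5 epithelial miRNAs of the miR-200 family, all were detected in MCT lung and 4 in untreated lung, with a summed intensity of 18461 in MCT lung and 15218 in untreated lung. Their log2 ratios over the 4 detected in both ran from -0.039 for miR-200c-3p to 0.77 for miR-429-3p, a span that held all 3 detected arms of the cluster. The fibroblast miRNAs miR-199a-3p, miR-199a-5p and miR-214-3p had 0.18 ± 0.040, 0.70 ± 0.086 and -0.28 ± 0.048, with a summed intensity of 17119 in MCT lung and 16169 in untreated lung. For the 3 detected arms of the cluster themselves the sum was 48183 in MCT lung and 39088 in untreated lung. It came almost wholly from miR-145-5p and miR-143-3p, since miR-145-3p had normalized log2 levels of only 8.32 and 7.62. The untreated sum includes the uneven spot of miR-143-3p, and the direction of miR-145-5p depended on the scaling. In the authors' deposited series table miR-145-5p was lower in MCT lung, at 28197 against 30231. miR-143-3p was higher there, at 15276 against 12788, and miR-145-3p at 242 against 116. The deposited untreated value of miR-143-3p was 1.22 times the mean of its 3 spots, against 1.20 to 1.24 for probes of like brightness. It thus appears to include the uneven spot as well.

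Among blood cell miRNAs, the myeloid miR-223-3p was called lower in MCT lung at -1.21 ± 0.21, a call that depended on the scaling. Its raw mean intensity was 1262 in MCT lung and 1194 in untreated lung, and its log2 ratio was -0.036 without normalization, -0.25 centred on the median, -0.25 scaled by the 5S probes and -0.63 centred on the 75th percentile. The lymphocyte miRNA miR-150-5p had 0.17 ± 0.077. miR-142-3p and miR-142-5p were not detected on either array. The 2 detected white blood cell miRNAs summed to 13014 in MCT lung and 12600 in untreated lung. The red blood cell miRNA miR-451 had -0.038 ± 0.035, with 34582 in MCT lung and 35511 in untreated lung, and miR-144-3p was not detected. The liver miRNA miR-122-5p was not detected in MCT lung and only just passed the limit in untreated lung, at a mean intensity of 118.

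**Figure D5:**
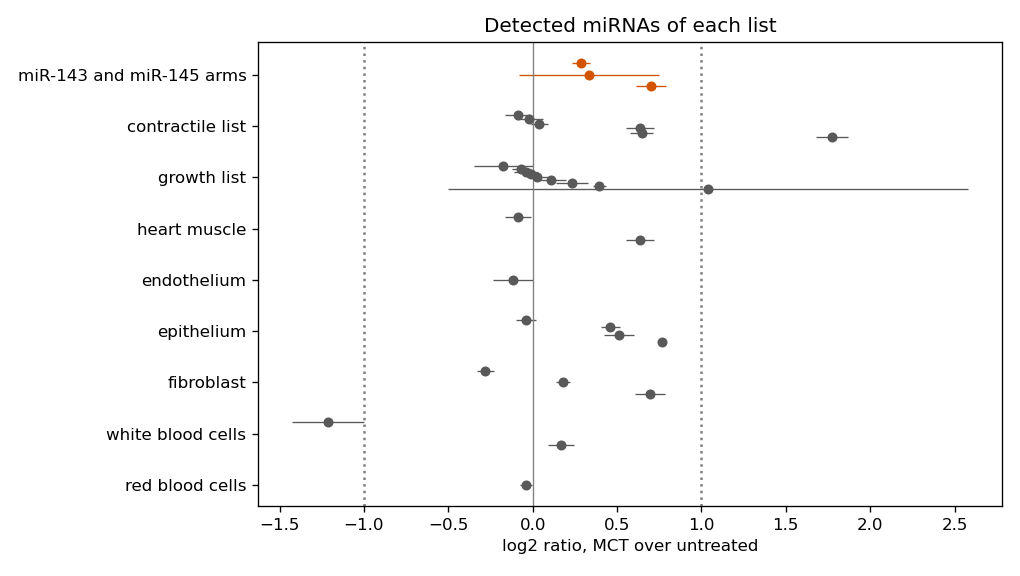
Log2 ratio, MCT over untreated, of each miRNA detected on both arrays, by list, with SD from repeat spots as bars; solid line at 0 and dotted lines at 2-fold either way. The 3 arms of the cluster lie between 0.28 and 0.70, within the range of the contractile, epithelial and growth lists. The growth list reaches that far only through miR-221-3p, which has the wide bar.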

How the data were processed

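The labels' protocols describe 2 µg of total RNA that was poly(A)-tailed, tagged, hybridised at a service provider and stained with Cy3. Per the file headers, the scanner tables hold the median pixel intensity of a spot and its pixel SD. Their linear values still contain background, as empty spots read well above 0. The authors' processed intensity per probe came from the deposited series table, whose making is described in none of the sources read.

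Background was corrected by normexp (limma 3.58.1, R 4.3.3, offset 50), fitted to all spot signals. Values of miRNA spots were then put on the log2 scale, quantile normalized and averaged over 3 spots. A ratio's SD combines the SDs of both arrays in quadrature. For the authors' values a pseudocount of 50 was used. Other steps used Python 3.11.15, pandas 2.3.3 and statsmodels 0.14.6. The steps were also run on simulated arrays as a check of the code. Those arrays held no uneven spots, so that run says nothing about the uneven spot of miR-143-3p.

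The arms and lists were chosen with earlier results of these data known. All 4 arms, every listed miRNA with a probe and the 3 nearest miRNAs per detected arm were named. miR-486-5p has no probe of that name, and the array's name miR-451 was used for miR-451a. miR-99b-5p, the spike control, miR-208a-5p and miR-208b-5p were named after their values were seen. With 1 array per group, the number of arrays sets the precision. The genome position and the sequences of the arms are not reported here.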

Additional observations from a re-analysis of the deposited data

How the results depend on the processing

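The results were recomputed under 17 other processings. The log2 ratio was above 0 in 17 of 17 for miR-145-3p, in 16 for miR-143-3p and in 13 for miR-145-5p. These counts are not counts of separate checks, since some processings differ only by a constant shift of an array's log2 values. For miR-143-3p most processings also kept the uneven untreated spot in the mean. Leaving that spot out gave 0.066 and the median of the spots gave 0.18, so its count does not settle a direction. The cause of each move was not tested. Without normalization miR-143-3p had 0.88, miR-145-5p 0.43 and miR-145-3p 1.72, with a median over the arms of 0.88. Centred on the median, miR-145-5p had 0.21 and miR-145-3p 1.502, with a median of 0.66, and scaled by the 5S probes they had 0.21 and 1.4999, with a median of 0.66. Centred on the 75th percentile they had -0.17 and 1.13, and with cyclic loess -0.025 and 0.56, with a median of 0.23. Raw intensities scaled to a common median before the correction, where the scaling follows the background, gave -0.21 for miR-143-3p, -0.67 for miR-145-5p and 0.86 for miR-145-3p, with a median of -0.21. For miR-145-3p the ratio was 0.56 without background correction, 0.81 with an offset of 16, 1.27 with a local background and 0.51 with the GC trend removed, where the median was 0.24. The authors' deposited values gave -0.10 for miR-145-5p and 0.82 for miR-145-3p. The median over the arms was 0.50 without spot 1 and 0.43 without spot 2.

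Of the arms, 1 was at least 2-fold higher without normalization, centred on the median or on the 75th percentile, scaled by the 5S probes and with a local background, and 1 at a threshold of 1.5-fold. It was miR-145-3p each time, and 0 were lower in any setting. Over all detected miRNAs, 142 were higher and 0 lower without normalization, 97 and 0 both when centred on the median and with the 5S probes, 49 higher when centred on the 75th percentile, 35 and 36 with a local background and 8 higher with the GC trend removed. With an offset of 16, 19 were lower, and 16 both with raw intensities scaled first and with the authors' values. The median log2 ratio of all detected miRNAs, -0.044 as reported, was 0.70 without normalization, 0.49 centred on the median, 0.48 with the 5S probes, 0.11 centred on the 75th percentile and -0.19 with raw intensities scaled first. The local background, the raw scaling and the omission of uneven spots were added after the data were seen. miR-143-5p gave no ratio under any of them. With the limit taken from dim miRNA spots, or all 3 spots required, 3 arms were still detected on both arrays. No paired analysis was possible because each group had 1 array.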
